A study of Mus musculus with 4 samples.

Results

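The genes described here encode the proteins of the small (40S) ribosomal subunit in mouse oocytes, and their RNA was followed through oocyte growth with and without deletion of Dcaf13. They were taken by symbol, as Rps followed by a number with or without the suffix a, l or x, or as Rpsa, which gave 32 genes of the 23235 in the table. Of these, 31 encode standard components of the small subunit, and Rps27l encodes a close paralog of the S27 protein. The rule used symbols only, but it was set with earlier results of these data known.

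The series compared deletion with control oocytes at 2 stages of growth, with 4 libraries in all. Fully grown deletion and growing deletion oocytes came from Dcaf13 fl/fl mice that also carried Gdf9-Cre, where Cre is driven from the oocyte promoter of Gdf9. Fully grown control and growing control oocytes came from mice with the same floxed alleles and no Cre transgene. All mice were on a C57B6 background. Fully grown oocytes were collected at 23 days, 48 h after 5 IU of PMSG, a gonadotropin that stimulates follicle growth, and growing oocytes at 14 days without it, so stage, age and PMSG cannot be told apart. Each library was made from 10 oocytes with an oligo-dT primed Smart-seq2 protocol, and each group had 1 library, so the values below have no error estimate and were not tested.

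A ribosome reads messenger RNA with its small subunit and forms peptide bonds with its large one. The small subunit is built in the nucleolus around 18S ribosomal RNA, by a large particle called the small subunit processome, and DCAF13 is known from its yeast counterpart, Sof1, as a component of that particle. The head of the small subunit and its body form the cleft through which messenger RNA passes. In growing oocytes ribosomes are made in large numbers and stored for the embryo. Messenger RNAs for ribosomal proteins begin with a short pyrimidine stretch, the TOP motif, through which their translation responds to the kinase mTOR.

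The base sequence around the annotated start of transcription is shown for 8 of these genes, chosen because the results below turn on them: 4 of the genes furthest above control in both deletion libraries (Rps27, Rpsa, Rps21 and Rps15), the paralog Rps27l, 2 genes close to or below control (Rps9 and Rps7), and Rps23, which was low in fully grown oocytes. Each sequence runs 5′ to 3′ on the strand of the gene from 35 bases before the start to the first 15 bases of the transcript, is taken from RefSeq on GRCm38.p6, and has its longest run of C or T in capitals.
Rps27: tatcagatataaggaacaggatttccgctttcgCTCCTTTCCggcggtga
Rpsa: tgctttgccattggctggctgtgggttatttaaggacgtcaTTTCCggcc
Rps21: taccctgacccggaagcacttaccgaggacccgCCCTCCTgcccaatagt
Rps15: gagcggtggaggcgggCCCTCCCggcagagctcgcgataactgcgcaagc
Rps27l: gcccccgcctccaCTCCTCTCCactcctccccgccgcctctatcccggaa
Rps9: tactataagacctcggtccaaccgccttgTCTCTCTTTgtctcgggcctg
Rps7: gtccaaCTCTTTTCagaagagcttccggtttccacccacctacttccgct
Rps23: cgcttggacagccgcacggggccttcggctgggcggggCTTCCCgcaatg
These windows lie at chr3:90213634-90213683 (minus strand, Rps27), chr9:120127731-120127780 (plus, Rpsa), chr2:180257344-180257393 (plus, Rps21), chr10:80292396-80292445 (plus, Rps15), chr9:66946051-66946100 (plus, Rps27l), chr7:3704006-3704055 (plus, Rps9), chr12:28635939-28635988 (minus, Rps7) and chr13:90923087-90923136 (plus, Rps23).

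A promoter was at hand for 24 of the 32 genes. A run of 8 or more C or T on the gene's strand lay in the 50-base window of 11 of the 24 genes (45.8%), against 20.6% of the first listed promoters of 27025 genes. In the whole 300 bases (250 before the start and 50 after) and on either strand, CCGGAAG, the core motif of ETS transcription factors, was found in 11 of 24 (45.8%) against 9.12% of all promoters. CTCTTT, a pyrimidine motif that can lie within such a run, was found in 11 of 24 (45.8%) against 22.9%. TATAAA was found in 2 of 24 (8.33%) against 14.2%. Rps9 and Rps7, whose deletion changes were among the lowest, hold a run of 8 or more. Rps4x and Rps23, each below control at a single stage, have longest runs of 5 and 6. Whether such runs go with the changes was not tested. Of the 50 bases 35 lie before the start, so a run in the window need not be part of the transcript. These matches describe sequence only.

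Levels are in FPKM, which corrects fragment numbers for the length of the transcript and the size of the library, and changes are differences in log2(FPKM + 1). FPKM gives the share of a gene in its library, so fewer transcripts per oocyte and a larger pool of other RNA cannot be told apart. Each library was made from 10 oocytes, and for any other cells carried along, less RNA per cell and fewer cells cannot be told apart either. In the deposited table symbols and values run in different sort orders and were re-paired here in byte order, an inference from the values. All 32 small subunit genes moved in this step, 25 of them by taking over a value that stood beside another of the 32. As deposited, 4 of the 32 had a mean below 5 FPKM, and the lowest was listed at 0. After re-pairing none was below 5, and the lowest mean was 33.4.

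Dcaf13 itself (mm9, chromosome 15, plus strand, 38944420 to 38978401) stood at 64.0 FPKM in the fully grown deletion library and 160.2 in fully grown control, and at 38.9 in growing deletion and 96.1 in growing control. Each deletion value is close to 40% of its control, 40.0% in fully grown and 40.5% in growing oocytes. Such a value over the whole gene cannot tell whether the floxed exons are missing. Summed FPKM lay between 649397 and 678437 in the 4 libraries. Of 18 oocyte markers, all reached 1 FPKM, with medians per library from 721 to 811. Of 12 granulosa cell markers 7 reached 1 FPKM in some library, and their summed level was 29.9 FPKM in fully grown deletion, 27.7 in fully grown control, 19.2 in growing deletion and 36.6 in growing control. The 9 theca and stroma markers summed to at most 1.26 FPKM (with Lum at 0 throughout), the 5 endothelial markers to between 13.3 and 20.8 (almost all Pecam1, with Cdh5 and Emcn at 0), and the 7 blood and immune markers to at most 3.62 (with both hemoglobin genes at 0). Granulosa markers thus stood below control in growing deletion oocytes and slightly above it in fully grown ones, and their part in the results was not tested.

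All 32 genes were above 5 FPKM in every library, and most were among the abundant transcripts of the oocyte. Together they held 4.28% of summed FPKM in fully grown deletion, 3.73% in fully grown control, 3.91% in growing deletion and 3.46% in growing control. The median gene stood at 839 FPKM in fully grown deletion, 729 in fully grown control, 759.8 in growing deletion and 618 in growing control. The median of all genes at 5 FPKM or more was between 21.8 and 22.8 FPKM. Between 22 and 24 of the 32 were at 500 FPKM or more, and 29 or 30 were among the 1000 most abundant genes of their library. Large subunit ribosomal protein genes held 5.78% in fully grown deletion, 4.99% in fully grown control, 5.40% in growing deletion and 4.67% in growing control. The ratio of the summed small subunit genes to the summed large subunit genes moved little, at 0.740 in fully grown deletion, 0.748 in fully grown control, 0.724 in growing deletion and 0.740 in growing control.

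**Figure D1:**
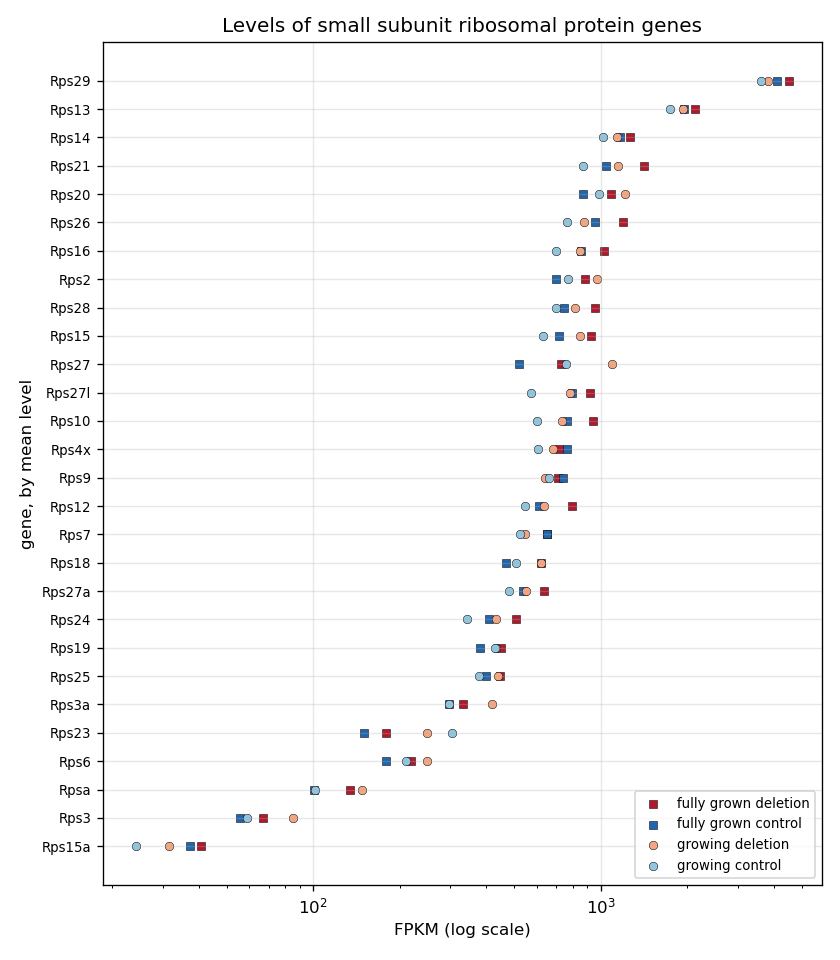
FPKM on a log scale (horizontal) of 28 of the 32 small subunit ribosomal protein genes (rows, ordered by mean level), with 1 point per library and no replicates. Rps29 is the highest gene and Rps15a the lowest in all 4 libraries, and 18 to 20 of the genes drawn are at 500 FPKM or more in each library.

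The highest level was that of Rps29, a short zinc-binding protein of the head. It stood at 4534 FPKM in fully grown deletion, 4094 in fully grown control, 3817 in growing deletion and 3614 in growing control, and ranked between 7 and 14 among all genes of these libraries. Rps13, a body protein, followed at 2122 FPKM in fully grown deletion, 1949 in fully grown control, 1938 in growing deletion and 1743 in growing control. Both genes kept their rank within the family in all 4 libraries. Rps14, whose loss in human bone marrow underlies the anemia of the 5q deletion syndrome, stood at 1261 FPKM in fully grown deletion, 1171 in fully grown control, 1142 in growing deletion and 1018 in growing control. For these 3 abundant genes the deletion library was the higher one at each stage and the fully grown library the higher one in each genotype, with changes of at most 0.25. With the trend over GC content and transcript length removed, a step described with the deletion results, growth had the opposite sign for Rps29 (-0.26 in the deletion and -0.57 in controls), for Rps13 (-0.17 and -0.30) and, in controls, for Rps14 (-0.07). The same step gave deletion changes in growing oocytes of -0.08 for Rps29 and -0.045 for Rps14.

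The other end held Rps15a, a body protein, at 40.6 FPKM in fully grown deletion, 37.2 in fully grown control, 31.6 in growing deletion and 24.1 in growing control. Rps3, which lines the channel where messenger RNA enters, stood at 67.0 FPKM in fully grown deletion, 55.5 in fully grown control, 85.2 in growing deletion and 58.8 in growing control. Rpsa, also known as the laminin receptor, stood at 134.6 FPKM in fully grown deletion, 100.9 in fully grown control, 147.8 in growing deletion and 101.1 in growing control. These 3 were the lowest of the family in every library. Rps6, the substrate of S6 kinase, stood at 219 FPKM in fully grown deletion, 179 in fully grown control, 249 in growing deletion and 211 in growing control. The highest gene of the family exceeded the lowest by 111.6-fold in fully grown deletion, 110.0-fold in fully grown control, 121-fold in growing deletion and 149.9-fold in growing control, although the proteins enter the subunit in equal number. The order of levels was alike between libraries, with Spearman's rho across the 32 genes from 0.898 to 0.974 over the 6 pairs of libraries, which share gene models and protocol.

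Near-identical copies limit how far these levels can be read. Ribosomal protein genes have many processed pseudogenes, and how reads with several matches were counted is not given in the sources used here. Of all 50-base stretches of a gene's coding sequence, the median small subunit gene had 88.0% that also occur in a GENCODE M21 transcript from another place in the genome. The share was at least 50% for 25 of the 32 genes. Rps3 had 8.09%, and Rps9, Rps15, Rps21 and Rps27l had between 43.0% and 48.3%. Rps2 shared stretches with 71 pseudogenes and Rpsa with 27. The level of a gene with a high share is therefore uncertain, and the part of such copies in the changes was not tested gene by gene.

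Deletion of Dcaf13 went with slightly higher levels of most small subunit genes at both stages. In fully grown oocytes 30 of 32 stood above control, with a median change of 0.25, and in growing oocytes 30 of 32 with a median of 0.23. Among all genes that reached 5 FPKM in either library of a pair, 55% of 7413 were above control in fully grown oocytes (median 0.04) and 58.5% of 8010 in growing oocytes (median 0.08). Higher by 0.25 or more, about 1.19-fold, were 16 of 32 in fully grown oocytes, where the background was 26.3%, and 15 of 32 in growing oocytes, where it was 31.9%. Lower by 0.25 or more were 0 of 32 in fully grown oocytes (background 19.4%) and 1 of 32, Rps23, in growing oocytes (19.7%). None reached a change of 1 in either direction, which 1.08% of all genes did upward and 1.09% downward in fully grown oocytes, and 2.62% upward and 2.51% downward in growing oocytes. Among genes at 100 FPKM or more the median change was 0.02 in fully grown and 0.06 in growing oocytes. The shift of the whole family was thus larger than that of abundant genes in these libraries, and no spread between replicates exists to set it against.

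**Figure D2:**
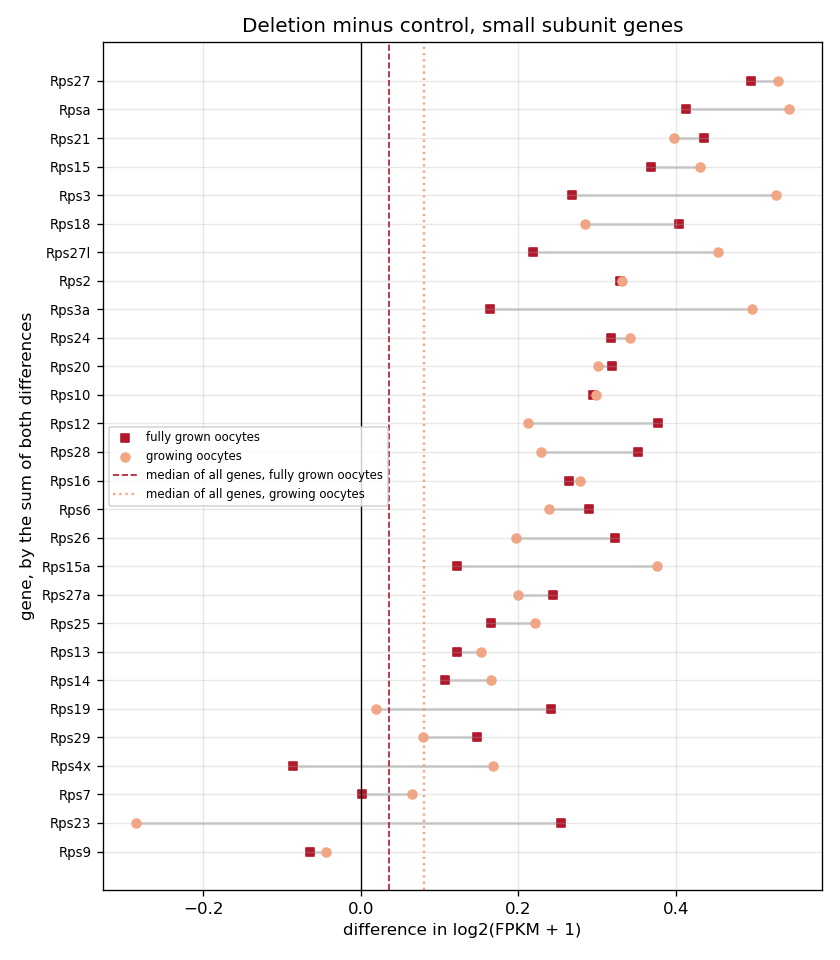
Difference in log2(FPKM + 1) between deletion and control (horizontal) for 28 of the 32 small subunit genes (rows), with squares for fully grown and circles for growing oocytes and 1 library per group. Vertical lines mark the medians of all genes at 5 FPKM or more (0.04 and 0.08), and 26 of the 28 genes drawn lie above 0 at each stage.

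The change of a gene across the table went with the GC content of its transcript, with Spearman's rho of 0.41 over 7342 genes in fully grown and 0.37 over 7934 genes in growing oocytes. The median GC content of small subunit transcripts was 51.5%, against 50% for all genes at 5 FPKM or more in some library, and their median length was 746 against 2519 bases. With the trend over GC content and length removed, the median change was 0.30 in fully grown oocytes, with 31 of 32 above 0, and 0.15 in growing oocytes, with 25 of 32 above 0. The growing value was thus more than 1.5 times smaller without the trend. Over the 7 genes with under 50% shared stretches, a setting chosen after seeing the data, the median was 0.22 in fully grown and 0.40 in growing oocytes.

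Rps27, a zinc-finger protein of the body, showed the largest change of the family in fully grown oocytes and the second place by size in the growing ones. It stood at 731 FPKM in fully grown deletion and 518 in fully grown control, a change of 0.50, and at 1096 in growing deletion and 759 in growing control, a change of 0.53. Rpsa stood at 134.6 FPKM in fully grown deletion and 100.9 in fully grown control (0.41), and at 147.8 in growing deletion and 101.1 in growing control (0.54). Both deletion libraries were above both control libraries for Rpsa, while for Rps27 the fully grown deletion library lay below the growing control one. Rps21, a small body protein that touches Rpsa, stood at 1414 FPKM in fully grown deletion and 1044 in fully grown control (0.44), and at 1148 in growing deletion and 871 in growing control (0.40). For Rps21, too, both deletion libraries were above both controls.

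Of the head proteins 14 of 14 were above control at each stage, with a median change of 0.27 in fully grown and 0.25 in growing oocytes. With the GC and length trend removed the counts were 14 of 14 in fully grown and 12 of 14 in growing oocytes, where Rps19 (-0.28) and Rps29 (-0.08) were below 0. Rps15, which reaches toward the decoding site, stood at 924 FPKM in fully grown deletion and 715 in fully grown control (0.37), and at 848 in growing deletion and 629 in growing control (0.43). Rps18 stood at 620.4 and 468 FPKM in fully grown deletion and control (0.40), and at 618 and 507 in growing deletion and control (0.29). These 2 genes were high in both deletion libraries and low in both controls. Rps12 (0.38 in fully grown, 0.21 in growing), Rps28 (0.35 and 0.23), Rps20 (0.32 and 0.30), Rps10 (0.30 and 0.30), Rps16 (0.26 and 0.28), Rps27a, which is made as a fusion with ubiquitin (0.24 and 0.20), and Rps25 (0.17 and 0.22) were above control at both stages, as changes in log2(FPKM + 1). Rps3 had 0.27 in fully grown and 0.53 in growing oocytes. Rps29 had 0.15 in fully grown and 0.08 in growing oocytes, where the medians of all genes were 0.04 and 0.08.

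Rps19, the gene most often mutated in Diamond-Blackfan anemia in humans, stood at 449 FPKM in fully grown deletion and 379.6 in fully grown control, a change of 0.24. In growing oocytes it stood at 434 FPKM in deletion and 428 in control, a change of 0.02. The growing libraries differed by less for Rps19 than for any other head protein.

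Body proteins were above control in 15 of 17 cases at each stage, with a median change of 0.24 in fully grown and 0.20 in growing oocytes, and with the trend removed in 16 and 12 of 17. Rps2, at the entry of the messenger RNA channel, stood at 882 FPKM in fully grown deletion and 701 in fully grown control (0.33), and at 969 in growing deletion and 769.7 in growing control (0.33). Rps26, at the exit of that channel, stood at 1192 and 953 FPKM in fully grown deletion and control (0.32), and at 878 and 765 in growing deletion and control (0.20). Rps24 (0.32 in fully grown, 0.34 in growing) and Rps6 (0.29 and 0.24) were above control at both stages as well. Rps3a had 0.16 in fully grown and 0.50 in growing oocytes, and Rps15a 0.12 and 0.38. Rps13 (0.12 and 0.15 in fully grown and growing oocytes) and Rps14 (0.11 and 0.17), both among the most abundant, had small changes.

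Without removal of the trend, the genes that stood at or below control at some stage were all of the body. Rps9, at the entry of the messenger RNA channel, stood at 709 FPKM in fully grown deletion and 742 in fully grown control (-0.06), and at 642 in growing deletion and 662 in growing control (-0.04). It was the one gene below control at both stages. Rps7 stood at 652 FPKM in both fully grown libraries (0.00), and at 547 in growing deletion and 523 in growing control (0.07). Rps4x, encoded on the X chromosome, stood at 718 FPKM in fully grown deletion and 762 in fully grown control (-0.09), and at 681 in growing deletion and 606 in growing control (0.17). Rps23, of the decoding center, stood at 179.6 FPKM in fully grown deletion and 150.4 in fully grown control (0.25), and at 249.7 in growing deletion and 304.7 in growing control (-0.29). Without the trend Rps4x had 0.01 in fully grown oocytes. For Rps9, Rps7 and Rps4x the reported differences were smaller than the median change of the family or of opposite sign.

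Grouped by origin instead of position, the 15 proteins with a bacterial counterpart had medians of 0.25 in fully grown and 0.29 in growing oocytes, with 14 of 15 and 13 of 15 above control. The 16 proteins without one had medians of 0.27 and 0.22, with 15 of 16 and 16 of 16 above control. With the GC and length trend removed, the order in growing oocytes reversed for both groupings. The medians were then 0.13 with and 0.19 without a bacterial counterpart, and 0.12 for head and 0.19 for body proteins. Neither grouping separated genes by the size of their change, and the lists overlap in range.

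The comparisons at the 2 stages share no library. Above control at both stages were 29 of the 32 genes (90.6%), against 39.2% of the 7188 genes measured in both. Higher by 0.25 or more at both were 11 of 32, against a background of 13.9%. Across the 32 genes the 2 changes had a Pearson's r of 0.47 and a Spearman's rho of 0.54, and across all 7188 genes 0.44 and 0.47. Both sets of values share the trend with GC content described above.

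The other proteins of the small subunit, whose symbols lie outside the Rps series, stood as follows. Fau, which encodes the S30 protein fused to a ubiquitin-like protein, stood at 1510.3 FPKM in fully grown deletion and 1277 in fully grown control (0.24), and at 1308 in growing deletion and 1141 in growing control (0.20). Gnb2l1, which encodes the signalling scaffold RACK1 of the head, stood at 161 and 119 FPKM in fully grown deletion and control (0.43), and at 157 and 119 in growing deletion and control (0.40). Both were above control at both stages by amounts inside the range of the family.

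Beside the small subunit genes, the 47 large subunit genes measured in fully grown oocytes had a median of 0.23 with 40 above control, and the 48 measured in growing oocytes 0.31 with 46 above control. Rpl34 was the one large subunit gene past a change of 1, with 1.19 in fully grown and 1.14 in growing oocytes, and the small subunit had no such gene. The most abundant large subunit genes, Rpl41 and Rpl35, had 0.19 and 0.17 in fully grown and 0.17 and 0.07 in growing oocytes. The 29 genes of the mitochondrial small subunit had a median of 0.03 with 18 above control in fully grown and 0.26 with 20 above control in growing oocytes. Their most abundant genes, Mrps36 and Mrps21, had 0.14 and 0.01 in fully grown and 0.46 and 0.16 in growing oocytes. Without the trend, large subunit medians were 0.27 in fully grown (43 of 47 above 0) and 0.21 in growing oocytes (37 of 48). The mitochondrial medians were then 0.07 in fully grown and 0.10 in growing oocytes, with 20 of 29 above 0 at each stage.

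Genes that assemble the small subunit were less uniform in the values as reported, but not in growing oocytes once the GC and length trend was removed. There 30 of 35 processome genes (median 0.24) and 10 of 11 late maturation genes (0.37) were above 0, against 25 of 32 small subunit genes (0.15). In fully grown oocytes the same step gave 27 of 34 (0.18), 7 of 11 (0.17) and 31 of 32 (0.30). Of the U3 particle and processome genes, 24 of 34 in fully grown oocytes (median 0.17) and 28 of 35 in growing oocytes (median 0.19) were above control, and Dcaf13 was the one past a change of 1. Emg1 and Nhp2l1, the most abundant of them, had -0.06 and -0.02 in fully grown and -0.10 and 0.38 in growing oocytes. Of 11 genes of late 40S maturation, 6 were above control in fully grown (median 0.11) and 10 in growing oocytes (median 0.25). Pdcd2l, the most abundant of these, had 0.15 in fully grown and 0.16 in growing oocytes, and the kinase gene Riok1 0.19 and -0.29. Of 14 other messenger RNAs with a TOP motif, 11 were above control in fully grown (median 0.30) and 13 in growing oocytes (median 0.37). Without the trend the medians of these 14 were 0.27 in fully grown and 0.34 in growing oocytes. The elongation factor gene Eef1a1 had 0.09 in fully grown and 0.25 in growing oocytes, and Tpt1, which encodes translationally controlled tumor protein, 0.51 and 0.46. Regulators of the TOP motif in the mTOR pathway had 2 of 6 above control in fully grown (median -0.12) and 9 of 10 in growing oocytes (median 0.45). The most abundant of these, Rheb, which encodes a GTPase that activates mTOR, had -0.16 in fully grown and 0.16 in growing oocytes, and Eif4ebp1, a repressor of translation initiation, -0.57 and 0.57. The 10 mTOR genes include some that reached 5 FPKM only in growing deletion, such as Rptor (6.15, against 3.11 in growing control). Genes counted in this way are above control by the rule itself. The mTOR medians of the 2 stages thus cover unlike sets and cannot be set against each other.

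**Figure D3:**
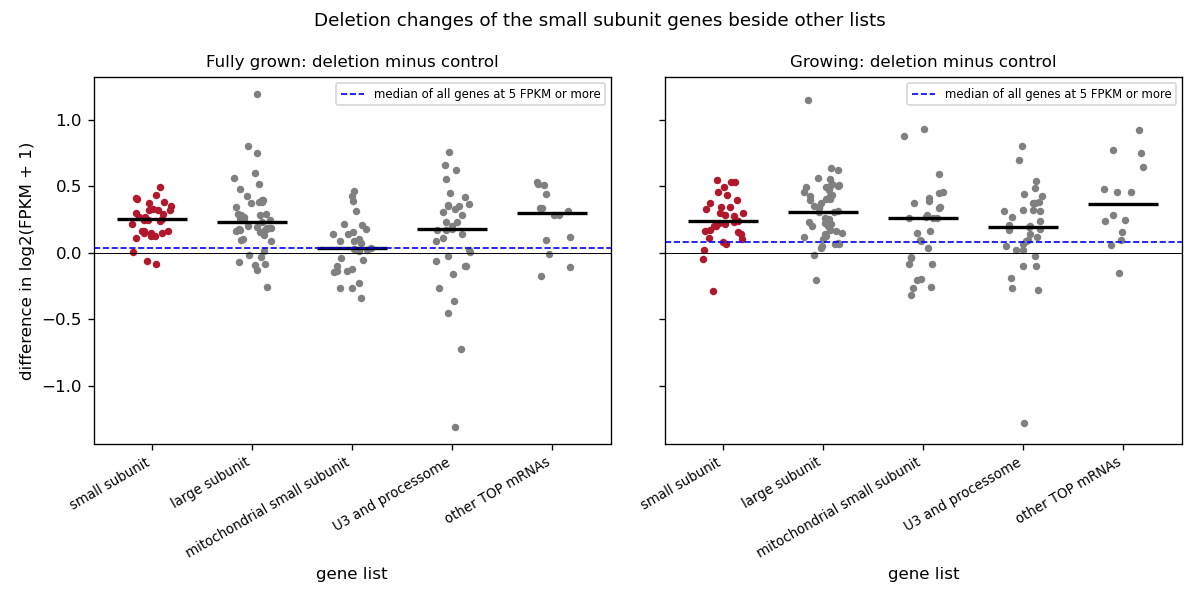
Difference in log2(FPKM + 1) between deletion and control (vertical) for genes of 5 lists (horizontal), in fully grown oocytes on the left and growing oocytes on the right, with 1 point per gene at 5 FPKM or more, a bar at each list's median and 1 library per group. The small subunit genes (red) lie in a narrow band with medians of 0.25 and 0.23, and the lowest point among the processome genes is Dcaf13.

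Over growth the family did not move as one. In deletion oocytes 24 of 32 small subunit genes were higher in the fully grown than in the growing library, with a median change of 0.16, against 44.1% of 7957 genes and a median of -0.07. In controls 22 of 32 were higher, with a median of 0.17, against 43.9% of 7661 genes and a median of -0.06. Higher by 0.25 or more were 9 of 32 in the deletion (background 24%) and 12 of 32 in controls (17.8%). Lower by 0.25 or more were 4 of 32 in the deletion (36.3%) and 2 of 32 in controls (30.5%). With the trend over GC content and length removed the medians were -0.06 in the deletion and -0.18 in controls, with 13 and 8 of 32 above 0, so the direction of the median over growth depends on that trend. Among genes at 100 FPKM or more the median change was 0.08 in the deletion and 0.10 in controls.

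**Figure D4:**
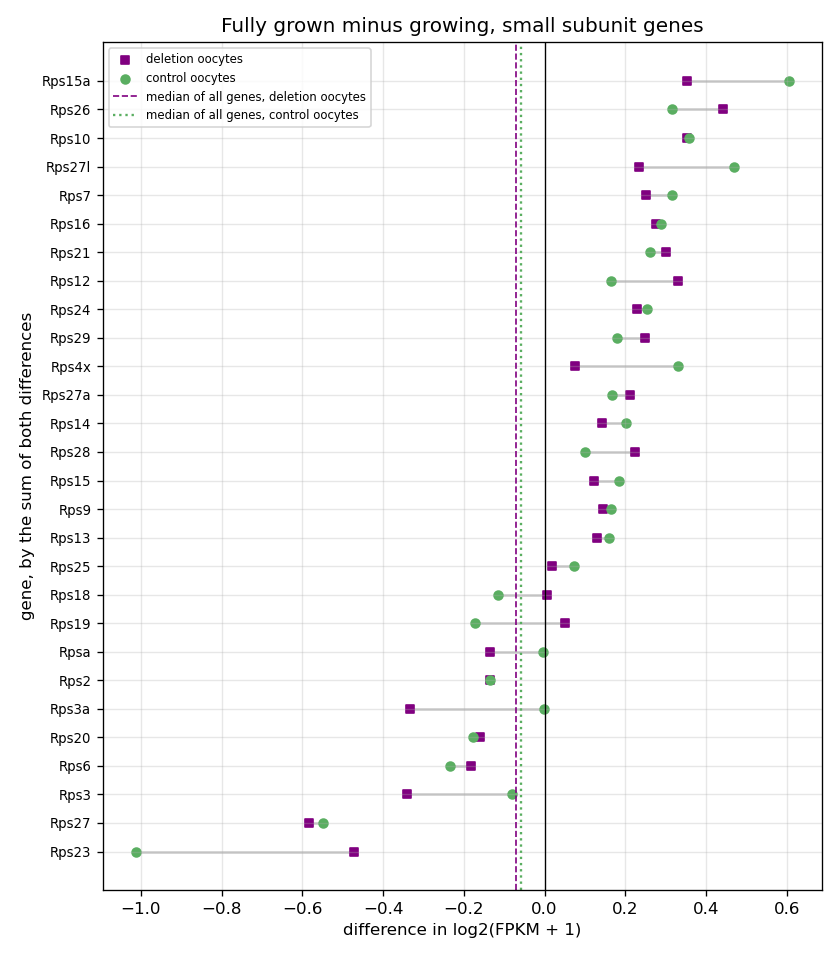
Difference in log2(FPKM + 1) between fully grown and growing oocytes (horizontal) for 28 of the 32 small subunit genes (rows), with squares for deletion and circles for control oocytes and 1 library per group. Rps23 and Rps27 lie at the bottom in both genotypes, and vertical lines mark the medians of all genes (-0.07 and -0.06).

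Rps26 and Rps10 were among the genes with the largest increases in the deletion. Rps26 stood at 1192 and 878 FPKM in fully grown and growing deletion (0.44), and at 953 and 765 in fully grown and growing control (0.32). Rps10, which joins the subunit late in its assembly, stood at 941 and 736 FPKM in fully grown and growing deletion (0.35), and at 767 and 598 in fully grown and growing control (0.36). For both genes the 2 fully grown libraries were above the 2 growing ones, although without the trend Rps26 had -0.12 in controls. Rps15a, the least abundant gene, had 0.35 in the deletion and 0.61 in controls, the largest increase there.

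Rps23 was the one gene past a change of 1. It stood at 179.6 FPKM in fully grown deletion and 249.7 in growing deletion, a change of -0.47, and at 150.4 in fully grown control and 304.7 in growing control, a change of -1.01. A change of 1 or more downward was seen in 3.07% of all genes in controls and 8.75% in the deletion, and upward in 1.11% in controls and 2.7% in the deletion, against 1 and 0 of the 32 downward and 0 upward in either. The change in controls was -0.98 with median-ratio rescaling and -0.97 with a pseudocount of 10. Both fully grown libraries were below both growing ones. All of its coding 50-base stretches occur elsewhere too, in 12 pseudogenes.

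Rps27 was lower in fully grown oocytes in both genotypes, by -0.58 in the deletion and -0.55 in controls, and without the trend by -1.24 in the deletion and -1.47 in controls. Other genes lower in both were Rps6 (-0.18 in the deletion and -0.23 in controls), Rps20 (-0.16 and -0.18), Rps2 (-0.14 and -0.13), Rps3 (-0.34 and -0.08) and, by a margin close to 0 in controls, Rpsa (-0.13 in the deletion). Rps3a had -0.33 in the deletion, with 333 FPKM in the fully grown and 419 in the growing library, and was close to 0 in controls, with 297 FPKM in both. The 2 growth comparisons share no library either. The same direction in both was seen for 30 of the 32 genes, 22 higher and 8 lower, against backgrounds of 32% and 42%. Pearson's r was 0.85 across the 32 genes and 0.68 across all 7383 genes measured in both.

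The paralogs Rps27l and Rps27 exchanged their order between the stages. Rps27l, which is known as a target of p53 and has the same coding length as Rps27, stood at 922 FPKM in fully grown deletion, 792 in fully grown control, 783 in growing deletion and 572 in growing control. Rps27 stood at 731 FPKM in fully grown deletion, 518 in fully grown control, 1096 in growing deletion and 759 in growing control. The ratio of Rps27l to Rps27 was 1.26 in fully grown deletion, 1.53 in fully grown control, 0.715 in growing deletion and 0.753 in growing control. Rps27l thus made up 55.8% and 60.5% of their joint FPKM in fully grown deletion and control, and 41.7% and 43.0% in growing deletion and control. It was the higher of the pair in both fully grown libraries and the lower in both growing ones. Relative to controls both were higher in the deletion, by 0.22 (Rps27l) and 0.50 (Rps27) in fully grown and by 0.45 and 0.53 in growing oocytes. The levels of this pair carry the limit given above: all coding 50-base stretches of Rps27 occur at other places, 8 of them pseudogenes, against 48.3% for Rps27l.

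**Figure D5:**
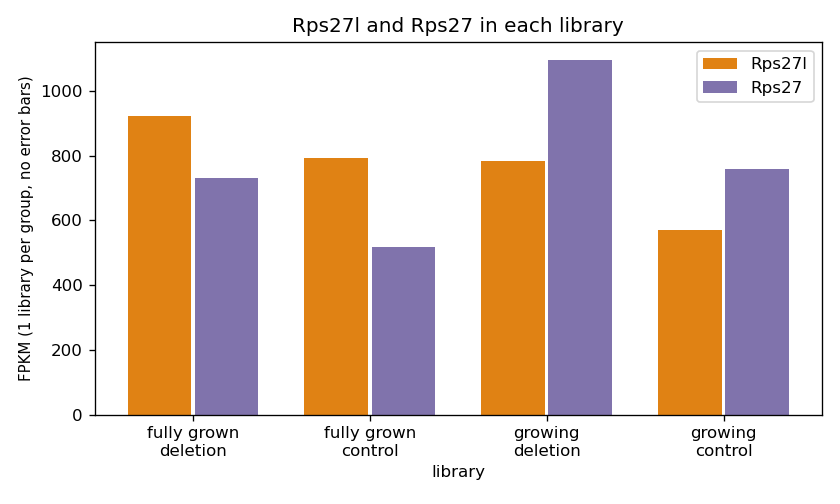
FPKM (vertical, from 0) of Rps27l and Rps27 in each of the 4 libraries (horizontal), 1 library per group and therefore no error bars. Rps27l is the higher bar in both fully grown libraries and the lower bar in both growing ones.

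Over growth the other lists had medians from -0.56 to 0.19. Large subunit genes had a median of 0.09 in the deletion and 0.13 in controls, with Rpl10l past a change of 1 in both (-1.68 and -1.17) and Rpl9 in controls (-1.18). Without the trend over GC content and length, large subunit medians were -0.11 in the deletion and -0.13 in controls. Then 18 and 16 of 48 were above 0, so their direction depends on that trend too. Fau had 0.21 in the deletion and 0.16 in controls (without the trend 0.05 and -0.22), and Gnb2l1 0.03 and 0.00. Mitochondrial small subunit genes had medians of 0.09 in the deletion and 0.19 in controls, and Mrps34 was past a change of 1 in both genotypes (-2.18 and -1.77), as was Mrps26 in the deletion (-1.75). Trend removal gave mitochondrial medians of -0.13 in the deletion and 0.01 in controls. Processome genes had -0.05 in the deletion and 0.08 in controls, and late maturation genes -0.11 in the deletion and 0.01 in controls, with Nob1, the nuclease that makes the end of 18S ribosomal RNA, at -1.62 in the deletion. The late maturation median in controls was -0.06 without the trend. The other TOP messenger RNAs had medians of -0.14 in the deletion and -0.05 in controls, with Pabpc1, the poly(A)-binding protein gene, at -1.53 and -1.05. The mTOR list had -0.56 over 10 genes in the deletion and -0.26 over 6 in controls. Eif4ebp1 (-1.65) and Rptor (-1.03) were past a change of 1 in the deletion. Rptor reached 5 FPKM only in growing deletion (6.15, against 2.50 in fully grown deletion). A gene counted through that library alone is lower in the fully grown one by the rule itself. The 2 mTOR medians thus cover unlike sets and cannot be set against each other.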

How the data were processed

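Per the labels' protocols, RNA of 10 oocytes per sample was made into cDNA with a modified Smart-seq2 protocol and into libraries with Tn5 transposase. The deposited values are FPKM, 1 value per gene symbol and library, made by the authors. Build mm9 and the tools Cufflinks 2.2.1, Bowtie2 2.1.0, TopHat2 2.0.11 and CASAVA 1.8 are listed, per the submitters' processing notes, with no roles. Not given in the sources used here are gene models, strand and the handling of reads with several matches. Read numbers per library are unknown. Depth relative to growing control, estimated from the commonest ratio among low genes (shared by 34 to 66 genes), was 1.11 in fully grown deletion, 1.01 in fully grown control and 1.04 in growing deletion.

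Symbols in byte order were paired with values in file order, which moved 19122 of 23235 rows. Changes are differences in log2(FPKM + 1), which makes changes of low genes look smaller than they are. Genes reaching 5 FPKM in either library of a pair were counted as above or below the other library, as changed by 0.25 or more, or as changed by 1 or more. These rules compare libraries, not conditions. Members and lists were chosen with earlier results of these data known. Genes named with full values were the 5 most and 5 least abundant members, the 3 largest changes each way per comparison, the Rps27 pair and members past a change of 1, and other members were named after their values were seen. Of the other lists, members past a change of 1 and the 2 most abundant genes were named. Values of 4 of the 32 genes are not reported here one by one and are not drawn in the plots by gene, while counts and medians hold all 32. No gene of the table carried the symbol Rps4l.

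GC content and length came from GENCODE M21 transcripts for 98% of symbols. The trend was a quadratic in both. Promoters came from RefSeq on GRCm38.p6, with 1 start, the first listed, per gene. Starts in mm9 are given from 1. Calculations used Python 3.11.15, pandas 2.3.3 and numpy 2.4.6, and counting and trend removal were tested on simulated data. The re-pairing step was only run on a table built with the same rule, which cannot show that the pairing is right. Alternatives were the pairing as deposited, pseudocounts of 0.1 and 10, minimums of 0, 1 and 100 FPKM, median-ratio rescaling, removal of the trend, and another member set.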

Additional observations from a re-analysis of the deposited data

Results flagged for a closer look

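In 4 cases a small subunit gene lay above the other library in one comparison and below it in the matching one. With 1 library per group the difference between the comparisons was not tested. Rps23 was higher in the deletion in fully grown oocytes (0.25) and lower in growing oocytes (-0.29). Rps4x was lower in the deletion in fully grown oocytes (-0.09) and higher in growing oocytes (0.17). With the GC and length trend removed, both Rps4x values were above 0 (0.01 in fully grown and 0.19 in growing oocytes). Rps18 was nearly level over growth in the deletion (0.01, with 620.4 and 618 FPKM) and lower in controls (-0.11). With the trend removed, both Rps18 values were below 0 (-0.25 in the deletion and -0.54 in controls). Rps19 was higher over growth in the deletion (0.05) and lower in controls (-0.17).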

How the results depend on the processing

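No paired analysis was possible because each group had 1 library, and for the same reason no library could be left out. In both deletion comparisons the counts above control and the counts higher by 0.25 or more stayed within 1.5 times of those reported under all planned settings. The median for growing oocytes was 0.15 with the GC and length trend removed and 0.40 over the 7 members with under 50% shared stretches, against 0.23, and over those 7 the fully grown median was 0.22, against 0.25. Removing that trend changed growth most: in controls the median was -0.18, with 8 members above 0, 1 higher by 0.25 or more and 2 (Rps23 and Rps27) past a change of 1, and in the deletion it was -0.057, with 13, 0 and 1. Over the 7 members with fewer shared stretches the growth median in controls was 0.26. The single member past a change of 1 in controls became 0 with a pseudocount of 10 and 0 with median-ratio rescaling, and the pairing as deposited gave 1 such member in the deletion. Shares of summed FPKM stayed within 1.5 times under the other pairing, the other member set and without the 15 genes that were among the 10 most abundant of any library. Depth is unknown, so counting error cannot be given.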

Other observations

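Across the 32 small subunit genes the mean level went with transcript length, with Spearman's rho of -0.50, and with the number of pseudogenes that share a coding 50-base stretch, with rho of -0.38. It did not go with the share of such stretches (rho -0.05). The deletion change in fully grown oocytes had a rho of 0.08 with that share, and the change in growing oocytes -0.24. These are descriptions over genes that share libraries and gene models.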
